A study of Cercocebus atys with 16 samples.

Results

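Genes of the MAP kinase cascade were described in double-negative T cells of SIV-infected sooty mangabeys before and after stimulation through CD3 and CD28. Members were the probes whose gene name in the array files starts with MAPK, MAP2K, MAP3K or MAP4K followed by a digit, or with MAPKAPK. The array held 60 such probes for 34 gene names. A probe was kept where its signal was well above background, as flagged by the scanner software, on both ratio arrays in the channel of 1 condition in at least 2 animals. This left 51 probes for 32 of the 34 genes, of 8354 gene names kept in all. MAP3K9 and MAPK4 had no kept probe and are not described further. Each gene is given by its kept probe with the highest mean intensity. The samples were 16 arrays with 2 colours from 4 animals, with FBR and FTV classed as CD4 low and FKN and FNV as CD4 normal. Cells were CD3+CD4-CD8- blood T cells taken with magnetic beads at a purity above 98% and rested overnight. Stimulated cells received anti-CD3 and anti-CD28, labelled as 3 and 1 mg/ml, for 4 hours, while unstimulated cells came from the same animals. All 4 animals carried SIV, and ages were not given in the labels. Each animal had 2 ratio arrays, on which both conditions were hybridised together in either dye orientation, and for each condition an array with the same RNA in both colours (self-self). The probes are rhesus macaque sequences, and mismatches to the mangabey transcript can weaken a probe's signal.

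MAP kinase cascades pass a signal from the cell surface through kinases that phosphorylate each other in order. MAP4Ks and small GTPases act on MAP3Ks, MAP3Ks phosphorylate MAP2Ks, and each MAP2K phosphorylates a small set of terminal MAP kinases. The terminal kinases form the classical ERK, JNK, p38, ERK5 and ERK3 groups, and MAPKAPK kinases are phosphorylated by them in turn. In T cells the antigen receptor feeds ERK through RAS and feeds JNK and p38 through adaptors and MAP3Ks, and these routes reach the transcription factors of early activation. The kinases are controlled mainly by phosphorylation, so the RNA levels measured here say nothing of kinase activity.

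The values turn on single 60-base probes, so probes of genes with large changes or with probes at different places are shown, 5′ to 3′, as deposited in the array files. Capitals mark AATAAA or ATTAAA, the hexamers that precede the poly(A) tail of many transcripts. These letters, read on the probe's own strand, occur in 8 of the 60 member probes (13.3%) and in 11.4% of the 43603 distinct probes of the array, and a match is no proof of a transcript end. Positions are those of the array files on rheMac2, and whether a probe lies in a coding exon or behind it is not annotated there.
MAPK11: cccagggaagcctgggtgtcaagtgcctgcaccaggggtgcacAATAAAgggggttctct
MAPK3: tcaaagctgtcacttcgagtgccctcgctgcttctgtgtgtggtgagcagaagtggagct
MAPK6 on chromosome 18: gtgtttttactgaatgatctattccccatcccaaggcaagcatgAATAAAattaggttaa
MAPK6 on chromosome 7: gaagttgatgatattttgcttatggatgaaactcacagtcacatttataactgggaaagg
MAP2K6, brighter probe: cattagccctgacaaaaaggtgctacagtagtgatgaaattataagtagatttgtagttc
MAP2K6, dimmer probe: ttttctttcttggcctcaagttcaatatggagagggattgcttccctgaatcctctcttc
MAP2K5: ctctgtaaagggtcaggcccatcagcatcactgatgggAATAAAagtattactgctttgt
MAPKAPK5: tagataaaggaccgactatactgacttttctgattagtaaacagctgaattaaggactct
The MAPK11 probe lies at chr10:94269034-94269093 and the MAPK3 probe at chr20:28098433-28098492, both on the minus strand. The MAP2K6 probes lie at chr16:64797181-64797240 and chr16:64798368-64798426, the MAP2K5 probe at chr7:46391255-46391314 and the MAPKAPK5 probe at chr11:112829257-112829316, each on the plus strand. The MAPK6 probes lie at chr18:36488799-36488857 and chr7:30352236-30352295 on the plus strand, and a further probe described as like MAPK6, which is no member, lies on chromosome 8. The array thus places MAPK6 or similar sequence on 3 chromosomes, and the copies cannot be told apart here.

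Between 33.3% and 64.98% of the spots were well above background per array and channel, and the lowest values were those of the stimulated self-self array of FNV. FNV was scanned apart from the other 3 animals, and on 1 of its ratio arrays the labels disagree on the channel of the stimulated RNA. For 2781 of 27493 kept probes, the mean level of FNV lay over 1 log2 unit outside the range of the other animals, against 40 for FKN, 50 for FBR and 226 for FTV. Among the probes that represent the 32 member genes this held for 1 in FNV (MAPK8IP3) and for none in the others. In FNV it also held for further kept probes of MAPK6, MAP3K1, MAP3K3 and MAPKAPK2, so the members are not free of this shift. The SD between the dye orientations of an animal was 0.14 to 0.17 on the log2 scale. The 6 T cell markers were all kept, 3 called higher and 2 lower. CD4 was well above background in all 8 stimulated and all 8 unstimulated channels of the ratio arrays, and CD8A and CD8B were not analysed here. Of 9 measured monocyte markers 4 were called lower and none higher after stimulation (median log2 ratio -0.83), with a summed level of 4128 to 36761 in stimulated cells and 5268 to 107985 in unstimulated cells. Of 5 measured B cell markers 3 were called lower and 1 higher, with a summed level of 2438 to 4142 in stimulated cells and 4925 to 15797 in unstimulated cells. CD14 and CD79A, which define these cells, were well above background in all 8 channels of each condition. Neither of 2 measured NK cell markers was called, and 1 of 4 erythroid and platelet markers was called lower. The part of these other cells in the responses below was not tested, and fewer cells of a type cannot be told apart from less RNA per cell in bulk RNA.

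Of the 51 kept probes 32 were called after stimulation, 13 higher and 19 lower, where 40.3% of all kept probes were called. Stimulation changed 20 of the 32 genes (62.5%), 9 of them higher and 11 lower, at an adjusted p under 0.05 in limma over all 27493 kept probes. Over all 8354 gene names taken the same way, 47.1% were called, 22.5% higher and 24.6% lower. On the ratio arrays all 20 moved in the same direction in 4 of 4 animals. Mean levels, which also draw on the self-self arrays, went against the ratio in FNV for 2 genes called higher. In FNV they were 12.21 in stimulated cells and 12.31 in unstimulated cells for MAPKAPK3, and 7.28 in stimulated cells and 7.42 in unstimulated cells for MAP2K3. A change of at least 2-fold was called for 9 genes, 2 higher and 7 lower, which is 28.1% of the members against 9.64% of all gene names. The median log2 ratio of the members was 0.00 and that of all gene names -0.01, which loess normalisation holds near 0. Levels of stimulated and unstimulated cells did not overlap for 12 members (37.5%), against 20.5% of all gene names. By tier, none of the 10 MAP3K genes was called higher and 6 were called lower, with a median of -0.49. Of the 5 MAP2K genes 2 were called higher and 2 lower, and of the 8 terminal MAPK genes 3 were called higher and 2 lower.

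**Figure D1:**
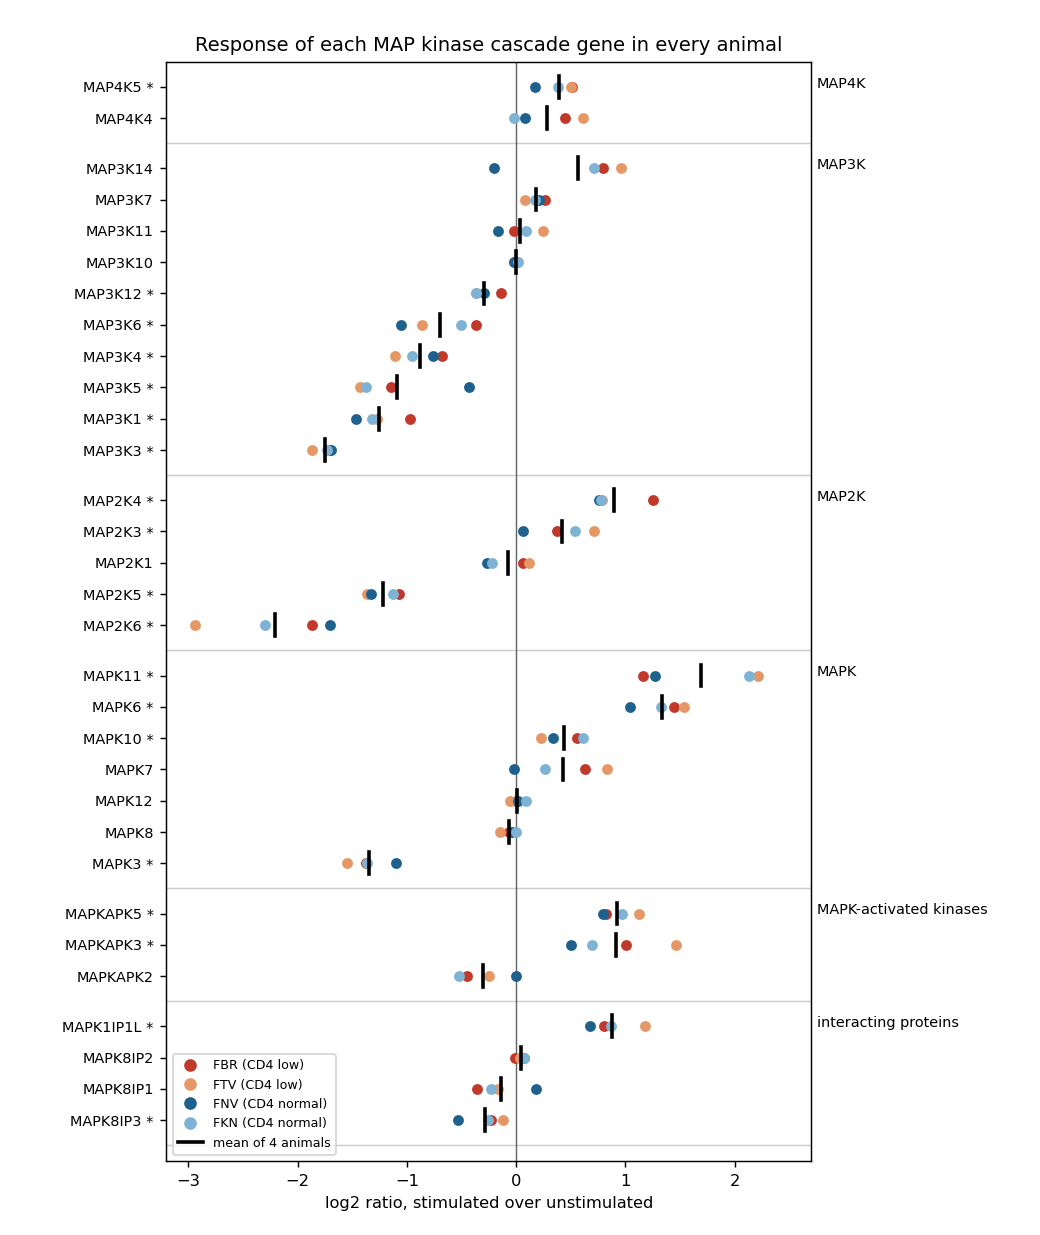
Log2 ratio of stimulated over unstimulated cells on the horizontal axis for 31 of the 32 kept genes, by tier, with 1 point per animal and a black bar at the mean of 4 animals. An asterisk marks an adjusted p under 0.05. The means run from -2.20 for MAP2K6 to 1.69 for MAPK11, and the MAP3K tier holds 6 genes called lower and none called higher.

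MAP4K kinases stand at the top of the cascade. MAP4K5 rose in all 4 animals, with log2 ratios of 0.51 in FBR, 0.50 in FTV, 0.38 in FKN and 0.17 in FNV and a mean of 0.39 ± 0.16 (SD, n = 4), or 1.31-fold, with an adjusted p of 0.0138. That call was lost without FKN, FBR or FTV, under median centring and in the self-self arrays. MAP4K4, a kinase of the same tier linked to JNK signalling, had log2 ratios of 0.45 in FBR, 0.62 in FTV, -0.02 in FKN and 0.08 in FNV and was not called (adjusted p 0.123). All 3 kept MAP4K4 probes missed the threshold, with means from 0.06 to 0.42.

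Among the MAP3Ks, the kinases MAP3K3, MAP3K1 and MAP3K5 fell by more than 2-fold. MAP3K3 (MEKK3), which phosphorylates MAP2K5 at the head of the ERK5 branch, had log2 levels of 9.94 in FBR, 9.79 in FTV, 9.92 in FKN and 10.13 in FNV in stimulated cells, against 11.64 in FBR, 11.65 in FTV, 11.62 in FKN and 11.75 in FNV in unstimulated cells. Every stimulated sample lay below every unstimulated one, and the log2 ratios of the ratio arrays ran from -1.87 in FTV to -1.69 in FNV. The mean log2 ratio was -1.75 ± 0.08 (SD, n = 4), or 3.36-fold, with an adjusted p of 0.000466, with the smallest spread between animals of the genes that changed at least 2-fold. Its 3 probes follow each other along the plus strand, and the response was -0.68 at the first, -1.31 at the second and -1.75 at the last, each called lower. Levels of the conditions overlapped at the first and the second probe. The first probe was the dimmest, well above background in 6 of 8 stimulated channels, and the last was the brightest. In the scanner software's own ratios the same probes gave -1.38, -1.79 and -1.80, so the differences between them depend on the processing.

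MAP3K1 (MEKK1), an activator of JNK, had log2 ratios of -0.97 in FBR, -1.27 in FTV, -1.32 in FKN and -1.47 in FNV. It fell on average by 2.39-fold (-1.26 ± 0.21 log2, SD, n = 4, adjusted p 0.000837), and the levels of the conditions did not overlap. MAP3K5 (ASK1), a stress-responsive kinase upstream of p38 and JNK, had log2 ratios of -1.14 in FBR, -1.42 in FTV, -1.37 in FKN and -0.43 in FNV. The mean was -1.09 ± 0.46 (SD, n = 4), or 2.13-fold, with an adjusted p of 0.00759, and FNV showed the weakest fall. MAP3K4, also upstream of p38 and JNK, had log2 ratios of -0.68 in FBR, -1.11 in FTV, -0.96 in FKN and -0.76 in FNV, with a mean of -0.88 ± 0.19 (SD, n = 4), or 1.84-fold, with an adjusted p of 0.00169. Its levels overlapped between conditions, with stimulated FNV above unstimulated FBR.

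MAP3K6 (ASK2), a relative of MAP3K5, was dim after stimulation, with its brighter probe well above background in 5 of 8 stimulated and 8 of 8 unstimulated channels. Its log2 ratios were -0.37 in FBR, -0.86 in FTV, -0.50 in FKN and -1.06 in FNV, with a mean of -0.70 ± 0.32 (SD, n = 4), or 1.62-fold, with an adjusted p of 0.0111. The scanner software's own ratios gave -1.96 and the authors' deposited table -1.55 for the same probe, both called. A further MAP3K6 probe was well above background in 0 of 8 stimulated and 6 of 8 unstimulated channels and was not called (adjusted p 0.0595). MAP3K12 (DLK) was called lower at a small size (-0.29 ± 0.11, adjusted p 0.0187), and its other probe gave -0.55, also called lower. The call at the brighter probe was lost without FKN or FTV, under median centring, in the self-self arrays and in the authors' deposited table (adjusted p 0.121).

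The rest of the MAP3K tier was not called. MAP3K14 (NIK), which drives the alternative NF-kB pathway, had log2 ratios of 0.80 in FBR, 0.96 in FTV, 0.71 in FKN and -0.20 in FNV, so FNV alone lay below 0 (mean 0.57 ± 0.52, adjusted p 0.0752). Over the 3 animals scanned together the mean was 0.82 with an adjusted p of 0.00154. MAP3K7 (TAK1), which links receptor adaptors to NF-kB, JNK and p38, gave 0.18 (adjusted p 0.0534) at its brighter probe and -0.32 (adjusted p 0.0491) at its other, nearby probe, so its direction depends on the probe. The brighter probe was called higher with scan batch as a term (adjusted p 0.0453) and with no filter on dim probes (adjusted p 0.0371), and by none of the other alternatives tried. MAP3K10 and MAP3K11, mixed-lineage kinases, had means of -0.01 and 0.04.

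In the MAP2K tier the closely related p38 activators moved in opposite directions. MAP2K6 (MKK6) showed the largest change of any member, with log2 levels of 6.72 in FBR, 6.57 in FTV, 6.71 in FKN and 7.07 in FNV in stimulated cells, against 8.41 in FBR, 9.21 in FTV, 8.78 in FKN and 9.09 in FNV in unstimulated cells. The stimulated levels lay near the dimmest levels measured on the array and well below all unstimulated ones. On average the log2 ratio was -2.20 ± 0.55 (SD, n = 4), or 4.61-fold, with an adjusted p of 0.00153. For this probe the scanner software's own ratios gave -3.77 and the authors' deposited table gave -3.66, so the size of the fall differs between ways of processing the arrays. The dimmer MAP2K6 probe was well above background in 0 of 8 stimulated and all 8 unstimulated channels. It was called lower at -0.61, or 1.52-fold (adjusted p 0.0235). With no stimulated channel well above background, the size of that fall is uncertain. MAP2K3 (MKK3), the other dedicated p38 activator, rose slightly, with log2 ratios of 0.37 in FBR, 0.71 in FTV, 0.54 in FKN and 0.07 in FNV and a mean of 0.42 ± 0.28 (SD, n = 4), or 1.34-fold, with an adjusted p of 0.0354. The MAP2K3 call was lost without FKN, FBR or FTV and without the FNV array whose labels disagree. It was also lost under median centring of the arrays, with no filter on dim probes and in the self-self arrays.

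MAP2K4 (MKK4), which phosphorylates JNK and also p38, had log2 levels of 12.01 in FBR, 11.52 in FTV, 11.86 in FKN and 11.70 in FNV in stimulated cells, against 10.88 in FBR, 10.82 in FTV, 11.12 in FKN and 11.03 in FNV in unstimulated cells. All stimulated samples lay above all unstimulated ones. The mean log2 ratio was 0.89 ± 0.24 (SD, n = 4), or 1.86-fold, with an adjusted p of 0.00247, and FBR showed the strongest rise at 1.25. MAP2K5 (MEK5), the dedicated activator of ERK5, had log2 ratios of -1.07 in FBR, -1.36 in FTV, -1.12 in FKN and -1.32 in FNV. The mean was -1.22 ± 0.15 (SD, n = 4), or 2.33-fold, with an adjusted p of 0.000638, and a second probe placed across a junction gave -0.77, also called lower. MAP2K1 (MEK1), an activator of the classical ERKs, had log2 ratios of 0.06 in FBR, 0.12 in FTV, -0.22 in FKN and -0.27 in FNV and was not called (mean -0.08 ± 0.20, adjusted p 0.507). Its 2 probes gave opposite signs, -0.08 and 0.07, neither called.

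The terminal kinases differed in direction. MAPK3 (ERK1) had log2 levels of 10.75 in FBR, 10.48 in FTV, 10.65 in FKN and 10.17 in FNV in stimulated cells, against 12.20 in FBR, 12.17 in FTV, 12.06 in FKN and 11.31 in FNV in unstimulated cells. Stimulated levels were below unstimulated levels without overlap. Its ratio averaged -1.35 ± 0.19 (SD, n = 4), or 2.54-fold, with an adjusted p of 0.000672, and a neighbouring probe gave -0.98.

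**Figure D2:**
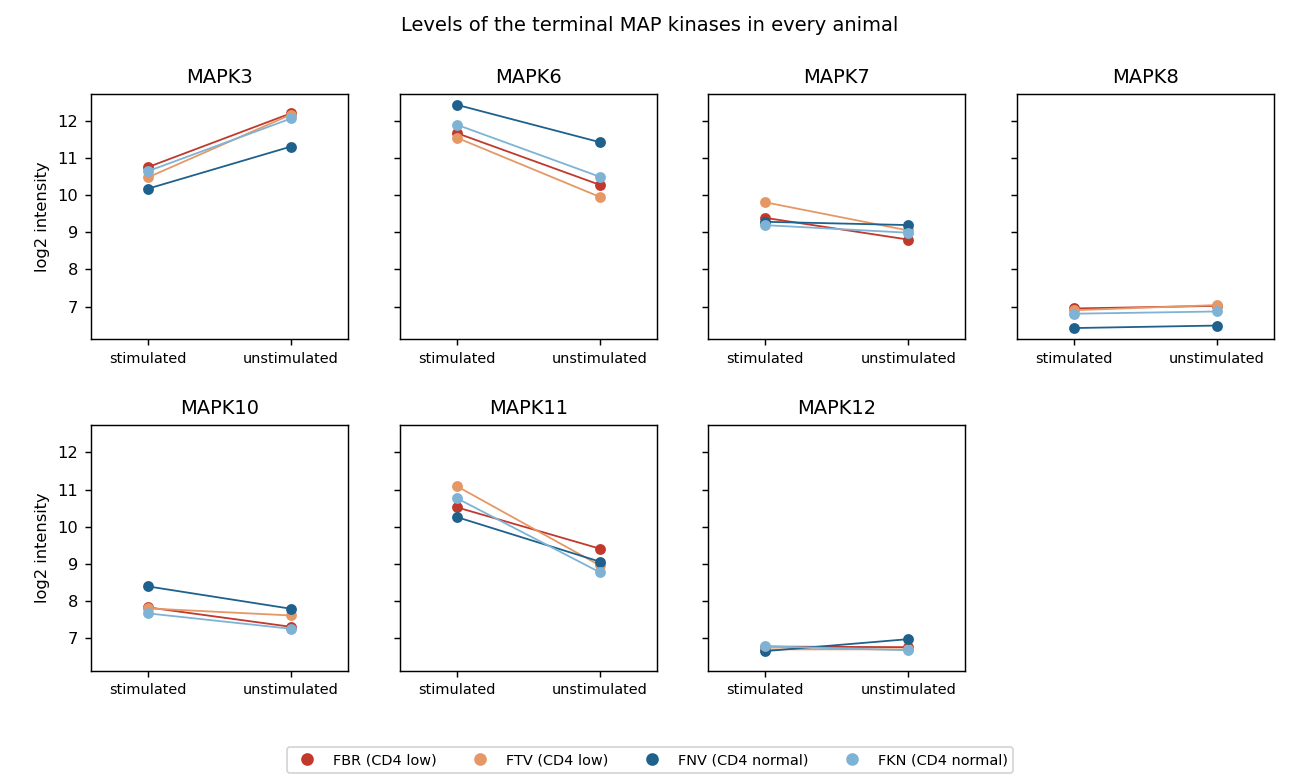
Log2 intensity of 7 of the 8 kept terminal MAP kinases in stimulated and unstimulated cells, with 1 line per animal. Stimulated levels lie above all unstimulated levels for MAPK6 and MAPK11 and below them for MAPK3, while MAPK8 and MAPK12 stay near the low end of the axis.

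Among the p38 kinases, MAPK11 (p38-beta) showed the largest rise of any member. Its log2 levels were 10.52 in FBR, 11.09 in FTV, 10.77 in FKN and 10.26 in FNV in stimulated cells, against 9.41 in FBR, 8.96 in FTV, 8.78 in FKN and 9.06 in FNV in unstimulated cells. Every stimulated level exceeded every unstimulated one. The mean log2 ratio was 1.69 ± 0.56 (SD, n = 4), or 3.24-fold, with an adjusted p of 0.00335, with log2 ratios of 1.16 in FBR, 2.21 in FTV, 2.13 in FKN and 1.27 in FNV. MAPK12 (p38-gamma) lies beside MAPK11, with 9470 bases between their probes on chromosome 10 and both on the minus strand. Its log2 ratios were 0.00 in FBR, -0.06 in FTV, 0.09 in FKN and 0.01 in FNV, with a mean of 0.01 ± 0.06 (adjusted p 0.887). The MAPK12 probe was well above background in only 6 of 8 stimulated and 7 of 8 unstimulated channels, so a change would be hard to detect at this signal.

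MAPK6 (ERK3), an atypical kinase outside the classical MAP2K relay, had log2 levels of 11.67 in FBR, 11.54 in FTV, 11.89 in FKN and 12.43 in FNV in stimulated cells, against 10.28 in FBR, 9.95 in FTV, 10.50 in FKN and 11.42 in FNV in unstimulated cells. Within each animal the stimulated level at this brightest probe was the higher by more than 1 log2 unit, and the groups did not overlap. On average the rise was 1.34 ± 0.22 (SD, n = 4), or 2.53-fold, with an adjusted p of 0.000802. All 4 kept MAPK6 probes were called higher, with means of 1.03, 1.06, 1.10 and 1.34. The probe on chromosome 7 gave 1.06, within the range of the 3 on chromosome 18. Levels of the conditions overlapped at the chromosome 7 probe and at 1 of those on chromosome 18. The probe on chromosome 8 that is described as like MAPK6 was also called higher, at 0.92 ± 0.23 (adjusted p 0.00218).

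MAPK10 (JNK3), known mainly from neurons, had log2 ratios of 0.56 in FBR, 0.23 in FTV, 0.61 in FKN and 0.34 in FNV and was called higher at a modest size, 0.43 ± 0.18 (SD, n = 4), or 1.35-fold, with an adjusted p of 0.0124. Its levels overlapped between conditions. The authors' deposited table gave 0.68 for this probe and the scanner software's ratios 0.77. The call was lost without FKN or FBR, under median centring and in the self-self arrays. The other MAPK10 probes were well above background in 0 of 8 stimulated and 0 of 8 unstimulated channels and were not kept. MAPK8 (JNK1), the widely expressed JNK, had log2 ratios of -0.06 in FBR, -0.15 in FTV, 0.00 in FKN and -0.04 in FNV and a mean of -0.06 ± 0.06 (adjusted p 0.389). All 3 MAPK8 probes were dim, well above background in 5 or 6 of 8 stimulated and 4 to 6 of 8 unstimulated channels, and their means ran from -0.06 to 0.08 with none called.

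MAPK7 (ERK5) had log2 ratios of 0.63 in FBR, 0.83 in FTV, 0.26 in FKN and -0.02 in FNV. It was not called over the 4 animals (mean 0.43 ± 0.38, adjusted p 0.0742), and it was called higher over the 3 animals scanned together (0.58, adjusted p 0.0171).

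Of the kinases that terminal MAP kinases phosphorylate, 2 of 3 rose. MAPKAPK5 (MK5 or PRAK), the partner kinase of ERK3, had log2 levels of 8.41 in FBR, 8.49 in FTV, 8.61 in FKN and 8.86 in FNV in stimulated cells, against 7.68 in FBR, 7.43 in FTV, 7.70 in FKN and 8.10 in FNV in unstimulated cells. The conditions did not overlap, and the rise was similar in all animals. It rose on average by 0.93 ± 0.15 (SD, n = 4), or 1.90-fold, with an adjusted p of 0.00103. MAPKAPK3 (MK3), a p38 target, had log2 ratios of 1.00 in FBR, 1.46 in FTV, 0.69 in FKN and 0.50 in FNV and a mean of 0.92 ± 0.42 (SD, n = 4), or 1.89-fold, with an adjusted p of 0.0103. Its call was lost without FBR (adjusted p 0.0536), and under median centring and in the self-self arrays. MAPKAPK2 (MK2), the main p38 target kinase acting on RNA-binding proteins, had log2 ratios of -0.45 in FBR, -0.25 in FTV, -0.52 in FKN and 0.00 in FNV and was not called (adjusted p 0.0606). Over the 3 animals scanned together it was called lower at -0.41 (adjusted p 0.0110), while its second, junction-spanning probe gave 0.02.

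Of the interacting proteins that the gene name rule also takes in, MAPK1IP1L rose, with log2 ratios of 0.80 in FBR, 1.18 in FTV, 0.87 in FKN and 0.68 in FNV and a mean of 0.88 ± 0.21 (SD, n = 4), or 1.84-fold, with an adjusted p of 0.00203. A second MAPK1IP1L probe gave 0.69. The JNK scaffolds MAPK8IP1 (JIP1) and MAPK8IP2 (JIP2) were not called, at -0.14 and 0.04. MAPK8IP3 (JIP3) was called lower at -0.29 ± 0.17 (adjusted p 0.0418), and that call was lost without FKN, FBR or FTV and in the scanner software's own ratios. It was also lost under median centring, with no filter on dim probes, in the self-self arrays and in the authors' deposited table.

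Some kinases of the cascade carry an accession or a locus number in the gene name column and were no members, but the description column names them. They were looked up after the members' values were known. Of 24 such probes for 14 kinases 19 were kept, and 2 were called higher and 6 lower, or 42.1% called against 40.3% of all kept probes. MAPK14 (p38-alpha), the main p38 of immune cells, was lower at both probes that carry its name. They gave -0.92 ± 0.17 (adjusted p 0.00121) and -0.60 ± 0.12 (adjusted p 0.00231). They overlap, at chr4:35865433-35865492 and chr4:35865441-35865499, so they cover nearly the same sequence and are not separate evidence. MAPK14-like probes nearby gave -0.30 and -0.17, neither called. Of these, the first was called lower without FNV (-0.41) and the second in the scanner software's ratios (-0.54). MAPK13 (p38-delta), 29066 bases from MAPK14 on chromosome 4, gave 0.24 ± 0.15 (adjusted p 0.0537) and was not called. It was called higher under other processing, at 1.12 in the scanner software's ratios (adjusted p 0.0127), 0.91 in the authors' deposited table (adjusted p 0.0266) and 0.32 without FNV (adjusted p 0.00875), so its call and size depend on the processing. MAP2K2 (MEK2) was lower at -0.97 ± 0.49 (adjusted p 0.0134), whereas MAP2K7 (MKK7), the dedicated JNK activator, gave -0.04 ± 0.03 and was not called. MAPK9 (JNK2) gave -0.07 and 0.01 at its probes, neither called. A brighter MAPK9-like probe gave -0.18 (adjusted p 0.0540) and was not called. MAP4K2 was lower at -0.996 ± 0.162 (adjusted p 0.000959). Of the MAP4K2-like probes 1 was called lower at -0.75 (adjusted p 0.00815), and another gave -0.16 (adjusted p 0.100) and was not called. The latter was called lower at -0.93 in the scanner software's ratios (adjusted p 0.0239) and -0.90 in the authors' deposited table (adjusted p 0.0395). MAP4K1 (HPK1), a brake on T cell receptor signalling, gave -0.24 ± 0.14 with an adjusted p of 0.0504 and was not called. The same probe was called lower at -0.77 in the scanner software's ratios (adjusted p 0.00363), -0.69 in the authors' deposited table (adjusted p 0.0274) and -0.30 without FNV (adjusted p 0.0191). A MAP4K1-like locus was lower at -1.16 ± 0.27 (adjusted p 0.00160). A MAP3K8-like locus, related to the kinase TPL2, was higher at 0.41 ± 0.16 (adjusted p 0.0118).

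Read by branch, MAPK3 and MAP2K2 of the classical ERK branch fell while MAP2K1 was not called. In the ERK5 branch MAP3K3 and MAP2K5 fell. MAPK7 at 0.43 and MAP3K2, named only by its description, at 0.14 were not called. In the JNK branch MAP3K1 fell and MAP2K4 rose. Of the JNK genes MAPK10 rose at its only kept probe, while MAPK8 and MAPK9 were not called. In the p38 branch MAP3K5, MAP2K6 and MAPK14 fell while MAP2K3, MAPK11 and MAPKAPK3 rose. In the ERK3 branch both MAPK6 and MAPKAPK5 rose. These are calls against 0 for each gene, and differences between genes of a branch were not tested.

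**Figure D3:**
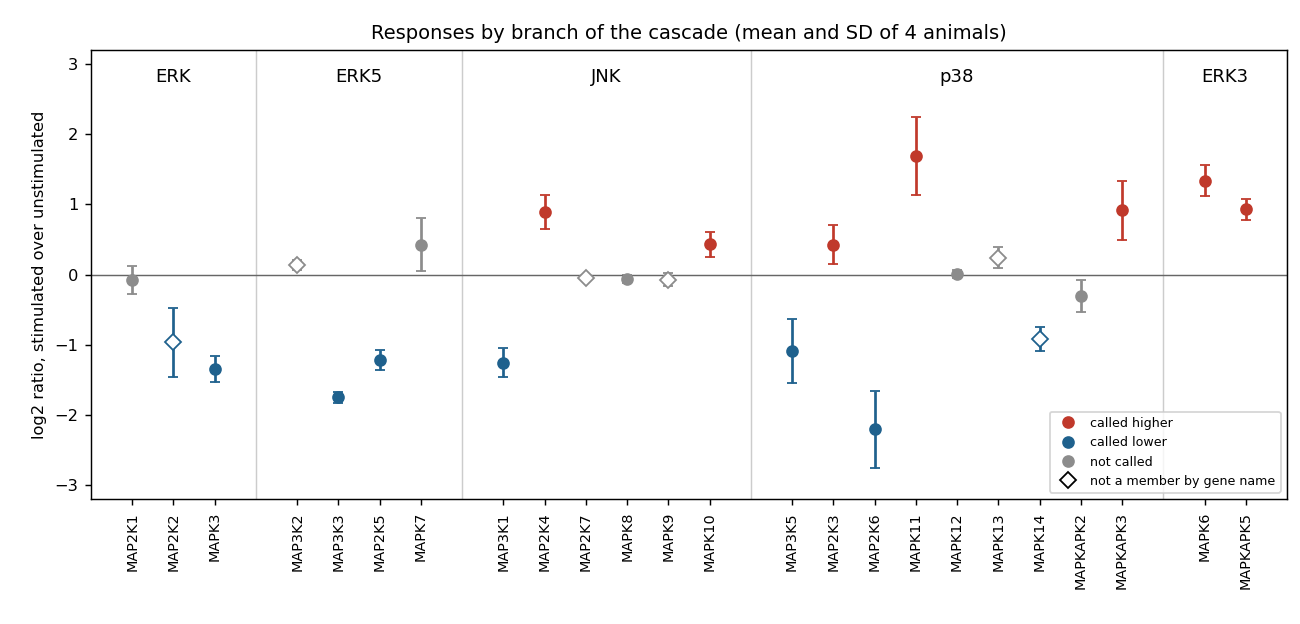
Mean log2 ratio of stimulated over unstimulated cells with its SD over 4 animals, for kinases grouped by the branch they are best known for. Circles are members and open diamonds are kinases named by their description. In the p38 group the means run from -2.20 for MAP2K6 to 1.69 for MAPK11.

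Of the 19 further kept probes of genes with more than 1 probe, 2 differed from the representative probe in their call, MAP3K6 and MAP3K7, and no gene had probes called in opposite directions. A further 3 probes had the opposite sign with neither probe called, in MAP2K1, MAPK8 and MAPKAPK2. In 6 more the log2 value differed by over 1.5 times with the same call and sign, in MAP2K5, MAP2K6, MAP3K12, MAP3K3, MAP4K4 and MAPK8.

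Genes around the cascade were taken from 8 lists holding 158 genes, of which 110 were measured, 31 called higher and 32 lower, where 22.5% of all gene names were called higher and 24.6% lower. Among targets of the cascade, transcription factors and RNA-binding proteins, 11 of 24 were called higher and 3 lower, with a median of 0.26. The largest rises were MYC at 2.07, a driver of growth, EGR2 at 1.83 and FOSL2, an AP-1 subunit, at 1.81. The transcription factors MEF2D at -1.46 and ELK3 at -0.66 fell, as did DDIT3, a stress-response factor, at -0.51. Of 15 measured MAPK phosphatases 3 were called higher and 3 lower, shares below those of all gene names. The ERK phosphatases DUSP5 at 2.48 and DUSP4 at 2.44 rose most, followed by DUSP14 at 0.53, whereas PPM1D at -0.52, DUSP19 at -0.34 and PPM1A at -0.32 fell. Of 7 measured negative regulators outside the phosphatases, ERRFI1 at 1.71 and SPRY1, a Sprouty inhibitor of RAS signalling, at 1.54 rose and RASSF5 at -1.33 fell.

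Upstream, 5 of 20 RAS and receptor-proximal genes were called higher and 8 lower, with a median of -0.23. RASGRP2, a guanine exchange factor for RAP1, fell most at -1.81, followed by PLCG1 at -0.97 and the adaptor LAT at -0.78. PRKCQ, the protein kinase C of the T cell synapse, at 0.80, NRAS at 0.72 and the RAS activator SOS1 at 0.61 rose. Of 18 scaffolds, adaptors and activators 5 were called higher and 6 lower. GADD45B, which binds and activates MAP3K4, rose to a log2 ratio of 2.08 while MAP3K4 fell as given above, and the NF-kB inhibitor TNFAIP3 at 1.02 and the JNK scaffold SPAG9 at 1.02 also rose. MADD at -1.24, ARRB2 at -1.03 and SH2D3C at -0.86 fell.

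Among kinases, 1 of 6 measured MAP3K-tier kinases outside the gene name rule was called higher and 3 lower, KIAA1804 (MLK4) at 0.87 and among the falls TAOK2 at -0.83 and TAOK3 at -0.43. Of 12 Ste20 kinases related to the MAP4Ks 3 were called higher and 4 lower, with rises in STK24 at 0.74, SLK at 0.68 and STK3 at 0.65 and the largest falls in STK10 at -1.40, STK39 at -1.11 and TNIK at -0.71. Of 8 measured kinases on a list of MAPK-activated and related kinases, NLK, itself an atypical MAP kinase, was called higher at 0.26 and 4 were called lower, the largest falls being CDK5, a cyclin-dependent kinase family member that regulatory partners and not MAP kinases activate, at -1.23, MKNK1, an ERK and p38 target that acts on translation, at -0.99 and RPS6KA5, also known as MSK1, at -0.86.

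**Figure D4:**
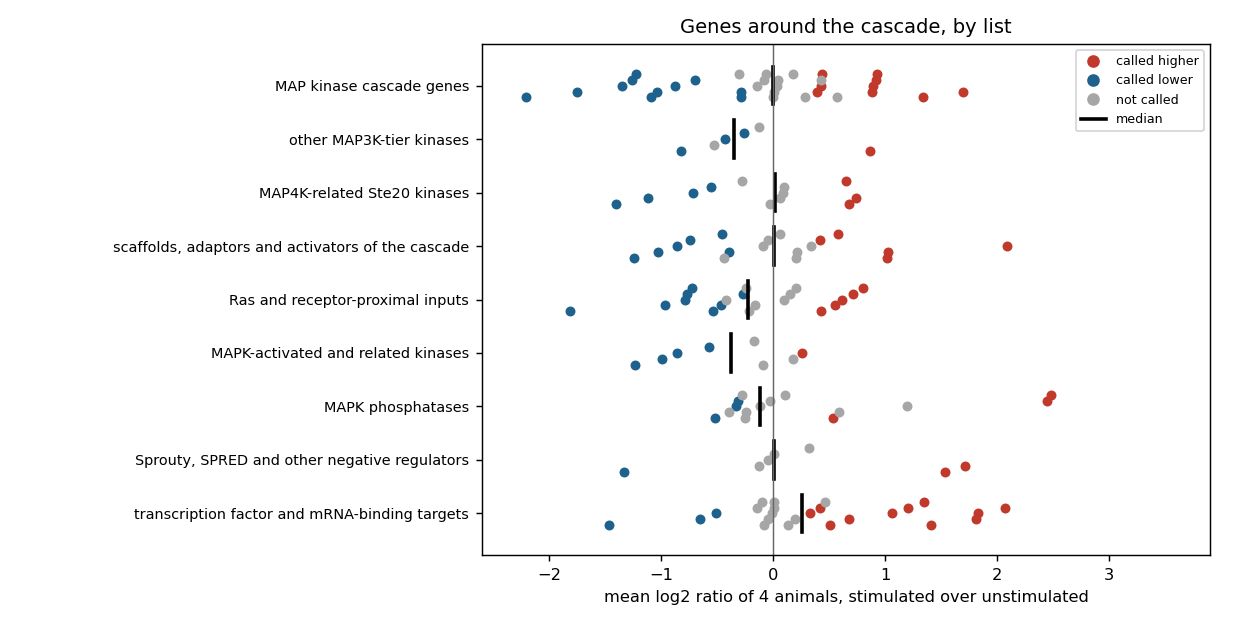
Mean log2 ratio of stimulated over unstimulated cells for the 32 members and the measured genes of 8 surrounding lists, with 1 point per gene and a black bar at each median. Medians run from -0.37 for MAPK-activated and related kinases to 0.26 for transcription factor and mRNA-binding targets.

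The CD4-low animals FBR and FTV were compared with the CD4-normal animals FKN and FNV in the response to stimulation. No probe was called (0% of 27493 probes, adjusted p under 0.05 in limma), and 594 probes had an unadjusted p under 0.05. None of the 32 members was called, and 4 had an unadjusted p under 0.05. The largest difference was in MAPKAPK3, with mean log2 ratios of 1.23 in CD4-low and 0.60 in CD4-normal animals, a difference of 0.63 ± 0.20 (SE). MAPK7 averaged 0.73 in CD4-low and 0.12 in CD4-normal animals, a difference of 0.61 ± 0.17 (SE). MAP4K4 averaged 0.53 in CD4-low and 0.03 in CD4-normal animals, a difference of 0.50 ± 0.14 (SE). MAP2K1 averaged 0.09 in CD4-low and -0.25 in CD4-normal animals, a difference of 0.34 ± 0.12 (SE), so both CD4-low animals lay above 0 and both CD4-normal animals below it. The adjusted p of each was 1.00. With 2 animals against 2, an exact permutation test of 1 gene cannot give a two-sided p below 0.333, so such differences cannot be settled at this size.

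Levels were compared in the same way. No probe was called in stimulated cells (0%) or in unstimulated cells (0%), and 570 and 452 probes had an unadjusted p under 0.05. Among the members 1 in stimulated cells, MAP4K4 at 0.80 higher in CD4-low animals, and none in unstimulated cells had an unadjusted p under 0.05. The differences of the members, CD4 low minus CD4 normal, ran from -0.59 to 0.80 in stimulated cells and from -0.84, for MAPK6, to 0.56 in unstimulated cells. For MAPK6 the sign depended on the probe. In unstimulated cells the difference was 0.85 at its chromosome 7 probe and -0.65 and -0.25 at its other chromosome 18 probes. Without FKN the CD4-normal group was FNV alone, which was scanned apart. The difference in stimulated cells, CD4 low minus CD4 normal, was then 1.49 for MAPK8IP3, 1.19 for MAPKAPK3, 1.08 for MAP3K14 and -0.95 for MAPK8IP1. In that comparison CD4 status and scan cannot be told apart.

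**Figure D5:**
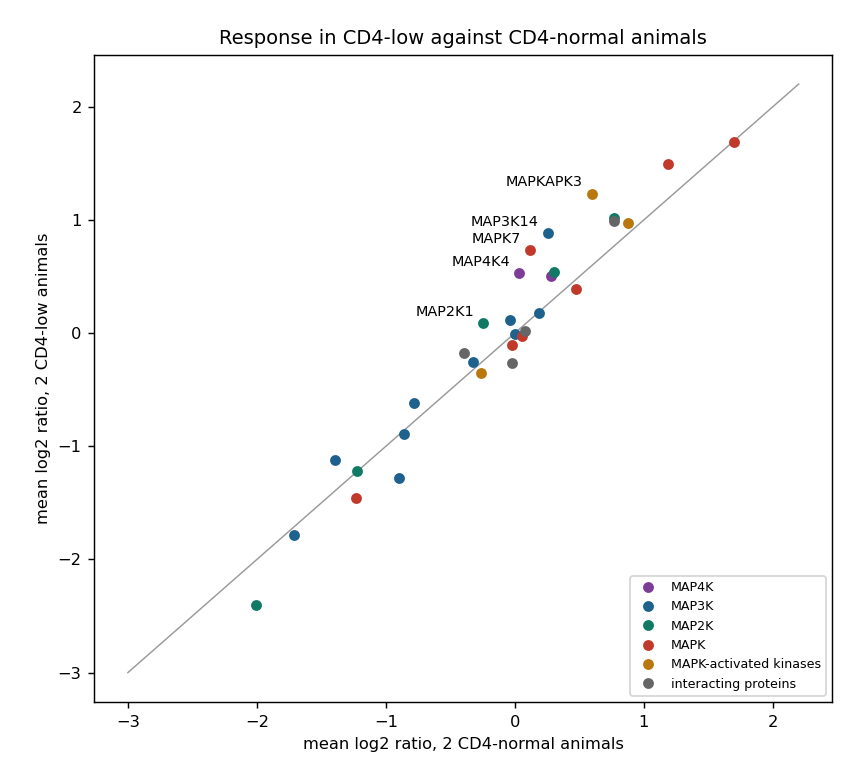
Mean log2 ratio of stimulated over unstimulated cells in the 2 CD4-low animals on the vertical axis and in the 2 CD4-normal animals on the horizontal axis, with 1 point for each of 31 genes coloured by tier and a line at equal values. Names are given for differences over 0.45 or with an unadjusted p under 0.05. MAPKAPK3, MAPK7, MAP4K4, MAP3K14 and MAP2K1 lie above the line, and no difference passed the adjusted threshold.

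In the authors' deposited table of log2 ratios per animal, 22 of the 32 representative probes could be matched in all 4 animals. The match was by the probe's name or, failing that, by the identifier of its target. A value there can therefore stand for several probes of a gene, as it does for MAPK6, MAPK1IP1L and MAP2K1, and is then not a like-for-like value of 1 probe. All 16 of these that were called here had the same direction in the authors' deposited table, and 2 of them, MAP3K12 and MAPK8IP3, did not pass the threshold there (adjusted p 0.121 and 0.0811). In 3 of them, MAP2K6, MAP3K6 and MAPK10, the mean differed by over 1.5 times. The authors' deposited table gave 1.53 for MAPK6, 1.25 for MAPKAPK5, -1.22 for MAP2K5 and -1.79 for MAP3K3.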

How the data were processed

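The authors deposited 1 scanner file per array, which gives the raw intensity of each spot and of its local background. Per the file headers it was written by Agilent Feature Extraction, version 10.7.3.1. The deposited arrays also hold the software's own log10 ratio of red over green, and a deposited table holds each animal's log2 ratio (stimulated over unstimulated) as the authors computed it, by steps that are not given in the sources used here. The submitters' processing notes name limma and Agilent Feature Extraction without their roles.

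Intensities were background-corrected (normexp, offset 50) and loess-normalised within arrays with limma 3.58.1 in R 4.3.3, control and outlier spots at weight 0. Ratios were turned to stimulated over unstimulated and averaged per animal, since both dye orientations hold the same 2 RNAs. For 1 FNV ratio array the labels disagree on which channel holds the stimulated RNA, and its title was followed. limma's moderated test compared the 4 ratios with 0, or CD4-low with CD4-normal animals, with Benjamini-Hochberg adjustment over 27493 kept probes. Levels are means of 4 channels per animal and condition after Aquantile normalisation, and levels of different probes were not compared. The replicates are separate animals, so stimulated and unstimulated self-self arrays pair by animal. The number of arrays limits the precision. The script was tested on simulated data.

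A few items are included in the counts and are not reported here by name. Members and gene lists were chosen with earlier results of these data known. Named with values in every animal are the genes called with at least a 1.5-fold change and the kept terminal kinases, with the 3 largest called changes in each direction per list. Gene names are those of the newer of 2 editions of the array annotation in the files. By the older edition there were 45 member probes for 28 genes. Alternatives left out each animal and changed the background correction, normalisation, filter, gene names and test.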

Additional observations from a re-analysis of the deposited data

Results flagged for a closer look

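In 7 of 96 sets of 4 animals (the response, the stimulated level and the unstimulated level of 32 genes), 1 animal stood apart from the other 3 by Dixon's criterion, where chance gives about 1 in 20. The response of MAP2K4 in FBR was 1.25 on the log2 scale, against 0.76 to 0.79 in the others. The stimulated level of MAP2K5 in FTV was 9.84, against 10.24 to 10.32 in the others. The unstimulated level of MAPKAPK3 in FTV was 11.81, against 12.31 to 12.35. The other 4 were levels in FNV, the animal scanned apart. Stimulated MAPK8IP1 stood at 8.23 in FNV, against 7.25 to 7.31 in the others, and stimulated MAPK8IP3 at 13.14, against 14.55 to 14.73. Unstimulated MAPK3 stood at 11.31 in FNV, against 12.06 to 12.20, and unstimulated MAP3K14 at 8.96, against 9.27 to 9.31. The response of MAPK3 in FNV, a ratio within the animal, was not set apart in this way.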

How the results depend on the processing

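No call of a member gene changed direction under any of 16 alternatives that gave single genes a value. Called lower or higher under all of them they could be fitted in were MAP2K4, MAP2K5, MAP2K6, MAP3K1, MAP3K3, MAP3K5, MAPK3, MAPK6, MAPK11, MAPKAPK5 and MAPK1IP1L. Leaving out 1 animal gave 5796 to 14074 probes called against 11082 in all (5796 without FKN, 6244 without FBR, 7130 without FTV), 5 to 11 members higher (5 without FBR), 8 to 13 members lower and a median of -0.0157 to 0.00487. With scan batch as a term, which leaves the spread of the 3 animals scanned together, 14146 probes, 12 members higher and 12 lower were called, the added members being MAP3K14, MAP3K7 and MAPK7 higher and MAPKAPK2 lower. Median centring called 4851 probes and 5 members higher, with a median of -0.0308. Self-self arrays paired by animal as a block called 8334 probes, 6 members higher and 9 lower (median -0.0161), and without the block 2254 probes, 5 members higher and 7 lower (median -0.0161). The older gene names gave 25 kept member genes in place of 32, from the same fits, with 5 higher and 9 lower (median -0.0628). Medians were 0.0181 without the FNV array with disagreeing labels, -0.0437 in the scanner's ratios and -0.0942 in the authors' deposited table. For CD4 status, leaving out 1 animal gave 0 to 1 probes called in unstimulated and 0 to 4054 in stimulated levels (0 to 4 members), the high counts without FKN, where FNV alone stood for the CD4-normal group. The causes of these shifts were not tested, and probes near background limit MAPK8, MAPK12 and MAP3K6.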
